A study of Homo sapiens with 10 samples.

Results

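Eph receptors and their ephrin ligands were described here in 10 libraries of poly(A)-selected RNA from D425 and HD-MB03, a pair of established Group 3 medulloblastoma cell lines. The set held 10 genes, 6 receptors (EPHA3, EPHA4, EPHA5, EPHA7, EPHB1 and EPHB2) and 4 ligands (EFNA2, EFNA5, EFNB1 and EFNB2), of the 22 Eph and ephrin genes and the 57820 gene identifiers in the count files. These 10 were picked with their levels across the lines and arms already known, so their values and fold changes are given as a description without a test, and the 12 other family genes carry the tests. The study asked how gene expression changes when a short hairpin RNA is directed at CRX, which encodes a photoreceptor and pineal homeobox protein.

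The D425 libraries labelled shCRX (3) came from polyclonal populations transduced with the lentiviral vector Tet-pLKO-puro carrying a doxycycline-inducible hairpin against CRX, and the D425 controls were parental cells (2) and cells with the empty vector (1). The HD-MB03 libraries labelled shCRX (2) carried the same kind of construct, and the HD-MB03 controls were parental cells (1) and empty-vector cells (1). Per the labels all 10 cultures were grown in DMEM/F12 with fetal bovine serum and given doxycycline at 4 µg/ml for 72 h, the parental and vector cells included. The labels name a pair of hairpins without saying which library had which, so the shCRX libraries of each line form 1 group.

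Eph receptors are receptor tyrosine kinases that bind ephrins on neighbouring cells. EphA receptors mainly bind the ephrin-A ligands, which are tethered to the membrane by a GPI anchor, and EphB receptors mainly bind the transmembrane ephrin-B ligands, with EPHA4 known to bind ligands of both classes. Receptor signalling into its own cell is called forward and signalling through the ephrin is called reverse, and in the developing nervous system, the cerebellum included, the family guides axons, sorts cells and sets tissue boundaries.

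The promoters of 4 of the 10 genes are shown because these genes carry the differences between arms or lines described below and have a single start in the RefSeq table. Each window runs from 250 bases before the annotated start to 50 bases after it, 5′ to 3′ on the gene's strand, with the start base in capitals, from RefSeq on GRCh38.p14. The positions are chr3:89107371-89107670 (plus strand) for EPHA3, chr5:107670888-107671187 (minus strand) for EFNA5, chrX:68828771-68829070 (plus strand) for EFNB1 and chr13:106535613-106535912 (minus strand) for EFNB2.
EPHA3: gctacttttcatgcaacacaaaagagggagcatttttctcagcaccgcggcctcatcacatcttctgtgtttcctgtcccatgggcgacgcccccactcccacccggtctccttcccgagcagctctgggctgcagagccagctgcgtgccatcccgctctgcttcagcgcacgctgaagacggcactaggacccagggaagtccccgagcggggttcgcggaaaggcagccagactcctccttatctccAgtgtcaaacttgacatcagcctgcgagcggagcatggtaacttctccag
EFNA5: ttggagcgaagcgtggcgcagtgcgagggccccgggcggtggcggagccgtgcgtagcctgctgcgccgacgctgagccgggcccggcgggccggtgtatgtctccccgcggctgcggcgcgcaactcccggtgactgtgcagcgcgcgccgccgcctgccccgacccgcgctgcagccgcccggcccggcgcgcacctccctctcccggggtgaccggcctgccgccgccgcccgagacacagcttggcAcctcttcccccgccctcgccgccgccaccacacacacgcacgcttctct
EFNB1: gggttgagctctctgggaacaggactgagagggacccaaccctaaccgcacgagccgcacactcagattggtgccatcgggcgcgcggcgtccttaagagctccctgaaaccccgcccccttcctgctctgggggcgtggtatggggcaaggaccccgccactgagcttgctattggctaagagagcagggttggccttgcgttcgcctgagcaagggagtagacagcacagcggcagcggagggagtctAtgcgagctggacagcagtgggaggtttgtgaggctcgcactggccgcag
EFNB2: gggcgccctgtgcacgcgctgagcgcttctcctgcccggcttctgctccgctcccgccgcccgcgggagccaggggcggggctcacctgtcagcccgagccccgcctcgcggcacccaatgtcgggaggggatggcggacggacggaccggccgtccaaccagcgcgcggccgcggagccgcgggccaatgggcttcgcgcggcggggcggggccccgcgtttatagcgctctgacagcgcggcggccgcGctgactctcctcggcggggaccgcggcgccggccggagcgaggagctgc
The core bound by CRX and OTX proteins, TAATCC, was searched on both strands (GGATTA on the other). It was in 0 of the 15 promoter windows of the 10 genes, in 2 of the 11 windows of the other family genes (EPHA1 and EPHA2), and in 6.36% of all 35116 windows of this length in the table. The absence of these letters from a window of 300 bases says nothing about binding elsewhere. The EFNA5 and EFNB2 windows held 47 and 49 CpG dinucleotides, against 17 in EPHA3, 18 in EFNB1 and a median of 14.0 over all windows.

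Several facts of the series bear on every value. Between 1956353 and 18061910 reads were counted in genes per library, with the fewest in the HD-MB03 controls, where a floor of 3 reads corresponded to 1.56 and 1.61 CPM (read counts per unit of TMM-scaled library size). Floors and intervals cover counting error only. CRX was 20.3, 20.9 and 25.3 CPM in the D425 shCRX libraries and 47.5, 29.7 and 64.9 CPM in the D425 controls. The log2 difference was -1.10 ± 0.26 (SE, adjusted p = 0.0436 by edgeR), and its call was lost without any of 9 libraries (-1.38 to -0.81 over the 10 left-out fits). This D425 call was also lost in 6 of 10 other settings. These were library totals, vector or parental controls alone, the GC trend removed, and 8 libraries with or without a replicate block. In HD-MB03, CRX was 27.7 and 23.5 CPM in the libraries labelled shCRX and 12.5 and 12.3 CPM in the controls, against the label (1.04 ± 0.36, edgeR adjusted p = 0.174). The library numbers carried by the files lay between 20 and 62 in D425 shCRX and HD-MB03 controls and at 110 or more in the others, so that in each line the number set and the arm cannot be told apart. HD-MB03 shCRX replicate 2 stood apart from its replicate: 355 of 12420 protein-coding genes were over 10 times higher in it than in replicate 1 and 0 were over 10 times lower. Whether that library holds reads of other libraries was not tested, which limits what the HD-MB03 values of EPHA3, EPHA5, EPHA7, EPHB1, EFNA2, EPHA10 and EPHB3 mean. Of the 10 Group 3 marker genes, 8 or 9 had a mean above 1 CPM in every group, with NPR3 at 0 counts in D425 shCRX and HD-MB03 controls and MAB21L2 at 0 in HD-MB03 controls. The Group 3 markers summed to 3258 to 5026 CPM in D425 shCRX and 6214 to 6951 in D425 controls, without overlap, and to 8462 to 8940 in HD-MB03 libraries labelled shCRX and 8161 to 9646 in their controls. Of the 9 tested, 3 fell in D425 shCRX by edgeR, with CRX itself, the target of the hairpin, among them. An unadjusted p under 0.05 was found for 6 of the 9, CRX again included. The median log2 fold change of the 9 was -0.69 in D425 shCRX. Of all 16006 genes, 1.37% fell there by edgeR and 2768 had an unadjusted p under 0.05. Of the marker lists of other cell types, the 8 fibroblast genes summed to 51.9 to 85.4 CPM in D425 shCRX and 25.9 to 37.7 in D425 controls, without overlap, and to 7.004 to 11.5 in HD-MB03 libraries labelled shCRX and 9.89 to 15.5 in their controls. PDGFRA was at 0 in D425 shCRX and LUM at 0 in HD-MB03 controls. The 6 matched endothelial genes summed to at most 2.09 CPM in any library, the 7 leukocyte genes to 2.90 to 16.9 and the 9 astrocyte and oligodendrocyte genes to 10.7 to 21.9. The part of these markers in the differences between D425 arms was not tested.

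**Figure D1:**
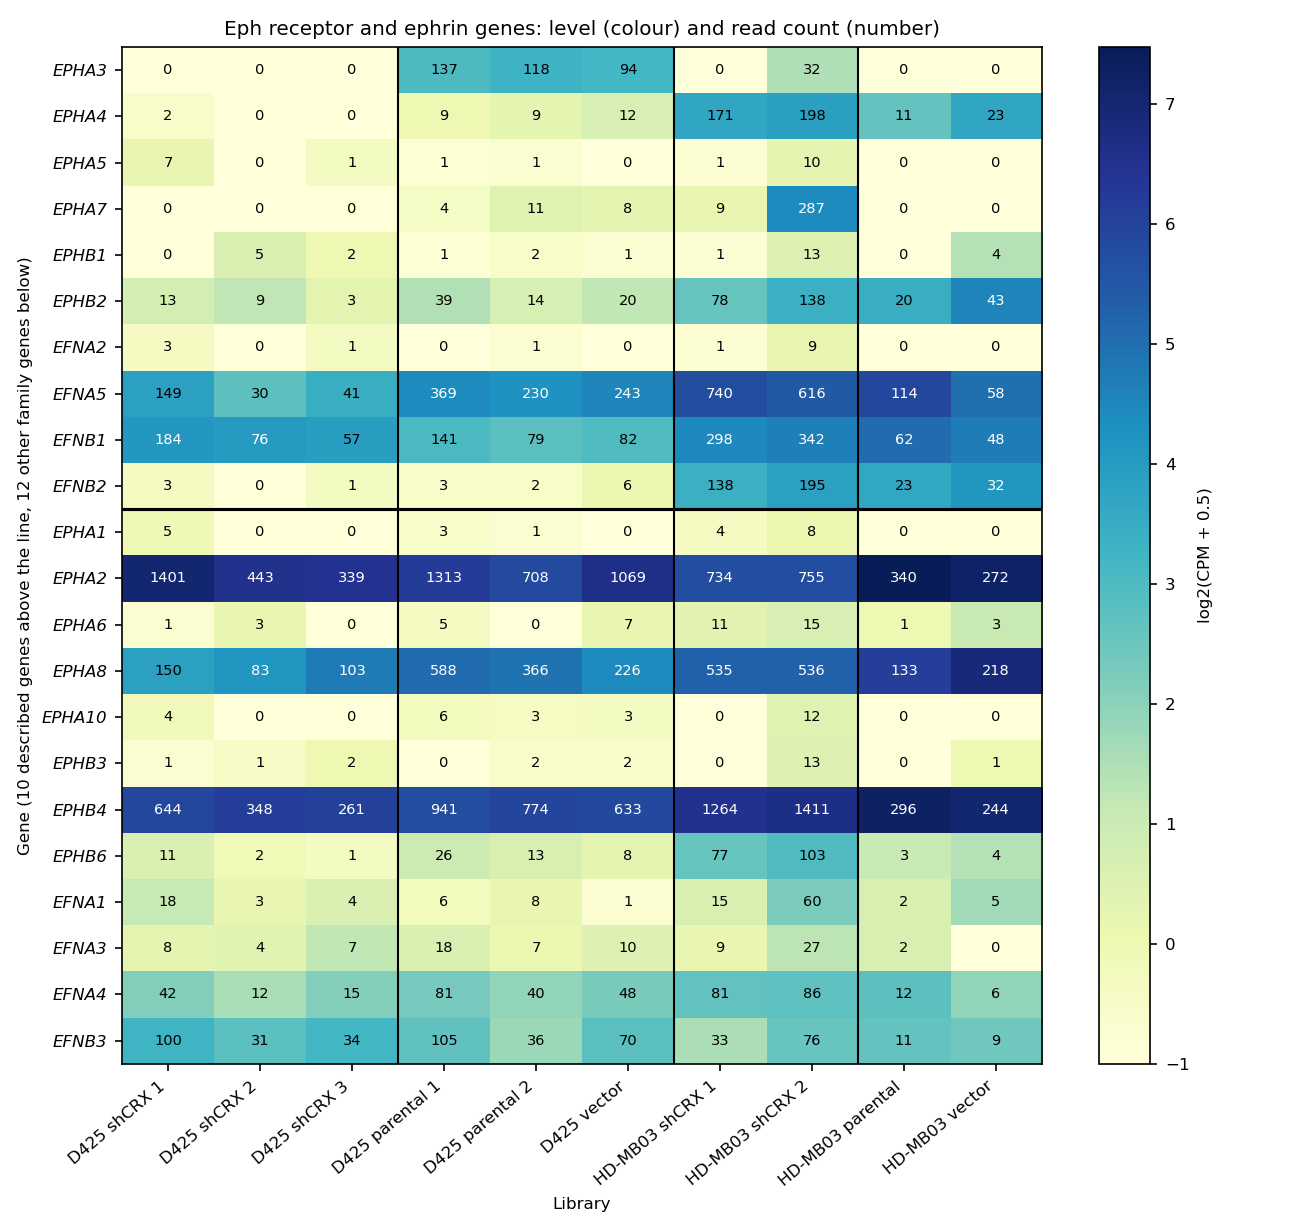
Levels of the 22 Eph and ephrin genes in each of the 10 libraries, as log2(CPM + 0.5) in colour with the read count printed in each cell; the 10 described genes are above the line and the 12 others below. EPHA3 is at 0 in the 3 D425 shCRX libraries, and EPHA7 reaches 287 counts in HD-MB03 shCRX replicate 2 alone.

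Of the 10 genes, 7 passed the filter on low counts, and EPHA5, EPHA7 and EFNA2 did not. In D425 the shCRX and control libraries did not overlap for 4 of the 7, with EPHA3, EPHA4 and EFNA5 lower and EFNB1 higher in shCRX, where 23.0% of all 16006 tested genes did not overlap (11.5% in each direction). In that comparison 2 of the 7 passed the edgeR threshold (EPHA3 lower, EFNB1 higher), against 2.97% of all genes (1.61% higher and 1.37% lower). In HD-MB03 the arms did not overlap for 2 of the 7, EPHB2 and EFNB1, both lower in the libraries labelled shCRX, against 52.3% of all genes (30.5% higher and 21.8% lower). There 0 of the 7 passed the threshold, against 1.51% of all genes (0.262% higher and 1.24% lower). In the mean over the lines 0 of the 7 passed, against 0.225% (0.0187% higher and 0.206% lower). The choice of the genes used these contrasts, so these counts support nothing further. Fewer cells that express a gene and less RNA of it per cell cannot be told apart in bulk libraries.

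Among the EphA receptors, EPHA3 (ENSG00000044524.6), a receptor of high affinity for ephrin-A5, was absent from the D425 shCRX counts. It had 0, 0 and 0 CPM in D425 shCRX replicates 1 to 3, against 7.67 and 9.52 CPM in the parental replicates and 8.54 CPM in the vector library. With 0 of its 349 D425 counts in shCRX, EPHA3 was at least 55.2-fold lower there, taking a floor of 3 counts over the 3 shCRX libraries. The parental and vector controls lay close together, at a mean of 8.58 ± 0.926 CPM (SD, n = 3). In HD-MB03, EPHA3 had 0 and 2.29 CPM in the libraries labelled shCRX and 0 and 0 CPM in the controls. All 32 of its HD-MB03 counts came from shCRX replicate 2, the library that stood apart, and without it both arms were at 0.

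EPHA7 (ENSG00000135333.9), a receptor studied in axon guidance and cortical cell death in mice, was low everywhere except in HD-MB03 shCRX replicate 2. It had 0, 0 and 0 CPM in D425 shCRX, against 0.224, 0.888 and 0.727 CPM in the D425 parental replicates and vector library. With 0 counts in D425 shCRX and 23 in D425 controls, it was at least 3.64-fold lower. In HD-MB03 it had 0.643 and 20.6 CPM in the libraries labelled shCRX and 0 and 0 CPM in the controls, and of 296 counts 287 were in replicate 2. The pooled bound was at least 13.4-fold higher in the libraries labelled shCRX. Without replicate 2 no bound above 1 was left, since 0.643 CPM lies under the control floor of 0.792 CPM. EPHA3 and EPHA7 were both among the 355 genes over 10 times higher in replicate 2 than in replicate 1. In replicate 2 all 14 receptors and 8 ephrins of the family had more than 3 counts, against 9 and 7 in replicate 1, from 14264160 and 14553098 counted reads.

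EPHA4 (ENSG00000116106.7), a receptor of axon guidance that binds ephrins of both classes, was lower in D425 than in HD-MB03. It had 0.185, 0 and 0 CPM in D425 shCRX and 0.504, 0.726 and 1.09 CPM in D425 controls. In HD-MB03 it had 12.2 and 14.2 CPM in the libraries labelled shCRX, against 5.73 CPM in parental and 12.3 CPM in vector cells. The D425 arms rest on 2 and 30 counts, a level 7.12-fold lower in shCRX, with a 95% counting interval of 1.81 to 61.5. The HD-MB03 arms overlapped, and their fold change of 0.55 ± 0.53 on the log2 scale was 1.23 without the vector library. EPHA5 (ENSG00000145242.9) was near the floor throughout, with 0.646, 0 and 0.256 CPM in D425 shCRX and at most 0.0807 CPM in D425 controls, and 0.0715 and 0.716 CPM in HD-MB03 libraries labelled shCRX with 0 and 0 in their controls. Of its 8 counts in D425 shCRX, 7 were in replicate 1, against 2 counts in D425 controls (8.43-fold higher, counting interval 1.68 to 81.5). The library kit does not mark strand, so reads of antisense genes cannot be told apart from those of their partners, and EPHA5-AS1 itself held at most 1 count in any library.

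The EphB receptors were described by EPHB2 and EPHB1. EPHB2 (ENSG00000133216.12), a receptor of axon guidance and synapse formation, had 1.20, 1.86 and 0.767 CPM in D425 shCRX and 2.18, 1.13 and 1.82 CPM in D425 controls. The HD-MB03 values were 5.57 and 9.88 CPM in the libraries labelled shCRX, against 10.4 CPM in parental and 23.1 CPM in vector cells. The D425 arms overlapped, with a fold change of -0.42 ± 0.50 on the log2 scale, and the HD-MB03 arms did not, with -1.11 ± 0.52, which was -0.41 without the vector library. EPHB1 (ENSG00000154928.12), known in mice for guiding retinal axons at the optic chiasm, had at most 13 counts in any library. It had 0, 1.03 and 0.512 CPM in D425 shCRX and 0.0560 to 0.161 CPM in D425 controls, and 0.0715 and 0.931 CPM in HD-MB03 libraries labelled shCRX with 0 and 2.14 CPM in their controls. No order of the arms can be read from these counts: the HD-MB03 fold change was -1.06 ± 1.54 with both controls and 5.37 without the vector library.

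Of the ephrin-A ligands, EFNA5 (ENSG00000184349.8), a repulsive guidance cue for axons, had more counts than EFNA2. It had 13.8, 6.20 and 10.5 CPM in D425 shCRX, against 20.7, 18.6 and 22.1 CPM in the D425 parental replicates and vector library. The 3 shCRX values lay below the 3 control values, with a fold change of -0.98 ± 0.30 on the log2 scale. The HD-MB03 values were 52.9 and 44.1 CPM in the libraries labelled shCRX, both between the controls at 59.3 and 31.1 CPM, with a fold change of 0.10 ± 0.35. EFNA2 (ENSG00000099617.2), a ligand known from retinal and olfactory maps in mice, had 0.277, 0 and 0.256 CPM in D425 shCRX and 0, 0.0807 and 0 CPM in D425 controls. In HD-MB03 it had 0.0715 and 0.645 CPM in the libraries labelled shCRX and 0 and 0 CPM in the controls, and its counts of 4 and 1 in the D425 arms allow a ratio of 0.834 to 415. EFNA2 and EPHA5 again had most of their HD-MB03 counts in shCRX replicate 2, with 9 and 10.

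Of the ephrin-B ligands, EFNB1 (ENSG00000090776.5), which sorts cells at tissue boundaries and is mutated in craniofrontonasal syndrome, was higher in shCRX in D425. It had 17.0, 15.7 and 14.6 CPM in D425 shCRX and 7.89, 6.37 and 7.45 CPM in D425 controls. The arms did not overlap, and the fold change was 1.12 ± 0.22 on the log2 scale. The HD-MB03 values were 21.3 and 24.5 CPM in the libraries labelled shCRX, below the controls at 32.3 and 25.7 CPM, with a fold change of -0.34 ± 0.27. The difference between the lines in this fold change was 1.47 ± 0.35. EFNB1 was the 1 of the 7 genes past the threshold for it, which is a description since the choice used these values, and the share of all genes past that threshold was 4.16% (2.67% higher and 1.49% lower). EFNB2 (ENSG00000125266.6), known for marking arteries and as a ligand of EPHB4, was near the floor in D425. It had 0.277, 0 and 0.256 CPM in D425 shCRX and 0.168, 0.161 and 0.545 CPM in D425 controls, from 4 and 11 counts. In HD-MB03 it had 9.86 and 14.0 CPM in the libraries labelled shCRX and 11.97 and 17.2 CPM in the controls, with overlapping arms and a fold change of -0.29 ± 0.52.

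**Figure D2:**
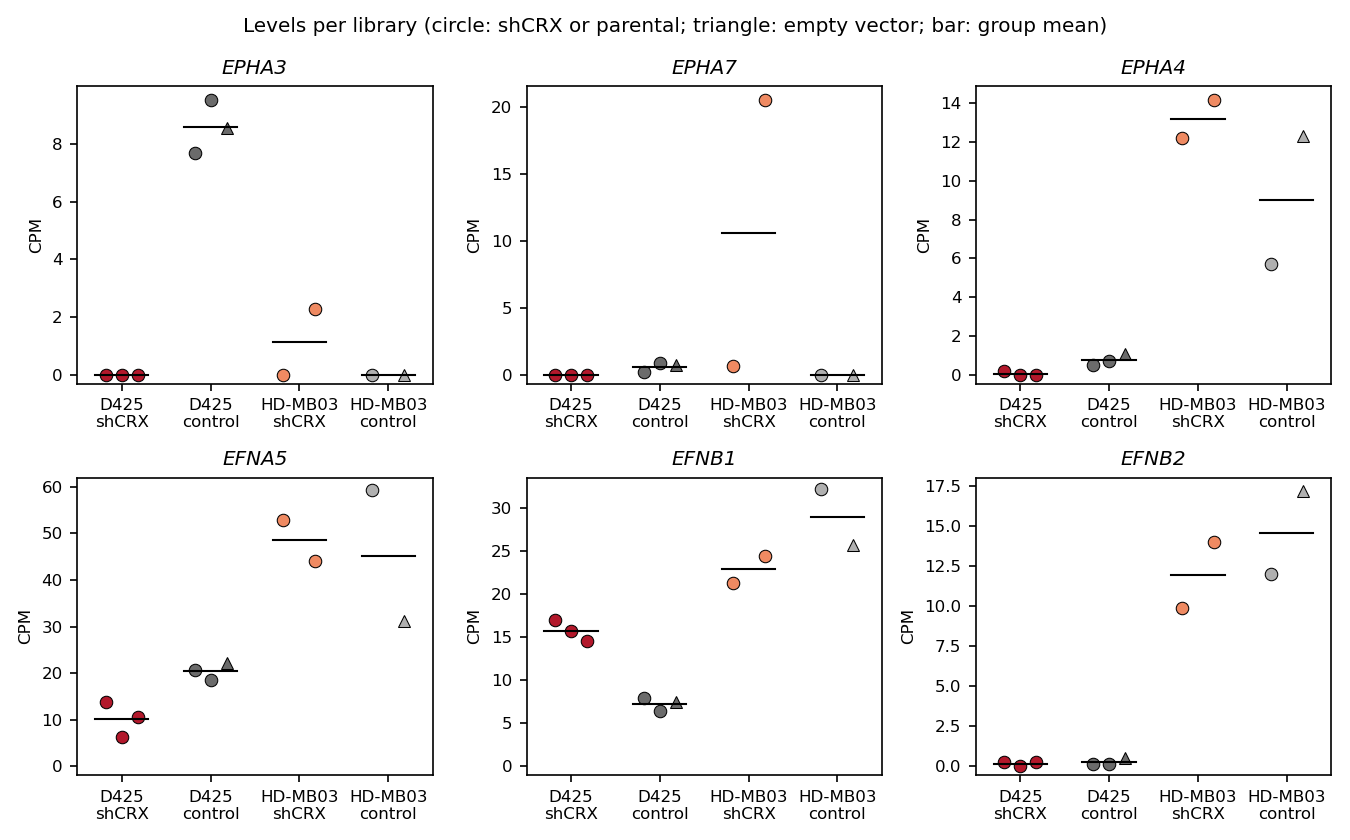
CPM of 6 of the genes in each library, grouped by line and arm, with circles for shCRX and parental libraries, triangles for empty-vector libraries and bars for group means. EFNB1 is higher and EFNA5 lower in D425 shCRX than in D425 controls, EPHA4 and EFNB2 lie mainly in HD-MB03, and the EPHA7 mean in HD-MB03 shCRX rests on the replicate at 20.6 CPM.

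Fold changes over all genes moved with GC content. Across 15581 genes, Spearman's rho of the fold change with GC content was 0.279 in D425 and -0.355 in HD-MB03, as a description over genes that share libraries. EPHA3, EPHA7 and EFNA5, all lower in D425 shCRX, had 42.9%, 38.4% and 43.2% GC, and EFNB1, which was higher there, had 60.5%, around a median of 49.7% over tested genes. EPHA4, also lower in D425 shCRX without overlap, had 49.7%, and EPHB2, whose D425 fold change was below 0, had 58.1%. EPHA5, with 41.5% GC, was 8.43-fold higher in D425 shCRX (counting interval 1.68 to 81.5, overlapping arms). EFNA2, with 71.1% GC, was also higher there, from 4 and 1 counts. With the GC trend of each library removed, the EFNB1 fold change moved from 1.12 to 0.92 in D425 and from -0.34 to -0.11 in HD-MB03. Both moves were larger than the replicate SD. EFNA5 had -0.88 in D425, against -0.98 before, and went from 0.10 to -0.29 in HD-MB03. Its difference between the lines went from -1.08 to -0.60, a move larger than the replicate SD. The D425 fold changes of EPHA3 and EPHA4, which rest on 0 and 2 shCRX counts, moved by less than that SD. The part of GC content in these results was not tested beyond that. Scaling by library totals moved the median over all genes to 0.15 in D425 on the log2 scale, against 0.02 with TMM, and EFNB1 to 1.26.

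The lines were then compared over the arms. Of the 7 tested genes, 5 had every D425 library below every HD-MB03 library (EPHA4, EPHB2, EFNA5, EFNB1 and EFNB2), where 29.1% of all genes did not overlap (13.8% lower and 15.3% higher in D425). The same 5 passed the edgeR threshold as lower in D425, where 46.0% of all genes passed (24.4% higher and 21.6% lower). EFNB2 differed by -5.73 ± 0.44 on the log2 scale, EPHB2 by -2.92 ± 0.36, EFNA5 by -1.69 ± 0.23 and EFNB1 by -1.27 ± 0.17. EPHB1 had overlapping lines, at -1.75 ± 1.04. EPHA3 ran the other way in the controls, at 8.58 ± 0.926 CPM in D425 (SD, n = 3) and 0 and 0 CPM in HD-MB03.

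These line differences could be read within each set of library numbers, where the arms differ instead. D425 shCRX against HD-MB03 controls (numbers 20 to 62) gave -6.10 ± 0.68 for EFNB2, and D425 controls against HD-MB03 libraries labelled shCRX (numbers of 110 or more) gave -5.37 ± 0.57. For EPHB2 the values were -3.69 ± 0.54 and -2.16 ± 0.47, and for EFNA5 they were -2.13 ± 0.34 and -1.25 ± 0.31. For EFNB1 they were -0.88 ± 0.25 and -1.66 ± 0.23. EPHA4 was 87.9-fold lower in D425 shCRX than in HD-MB03 controls, with a counting interval of 22.5 to 755 from 2 and 34 counts, and D425 controls against HD-MB03 libraries labelled shCRX gave -4.10 ± 0.50. All 5 genes were therefore lower in D425 within both sets.

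**Figure D3:**
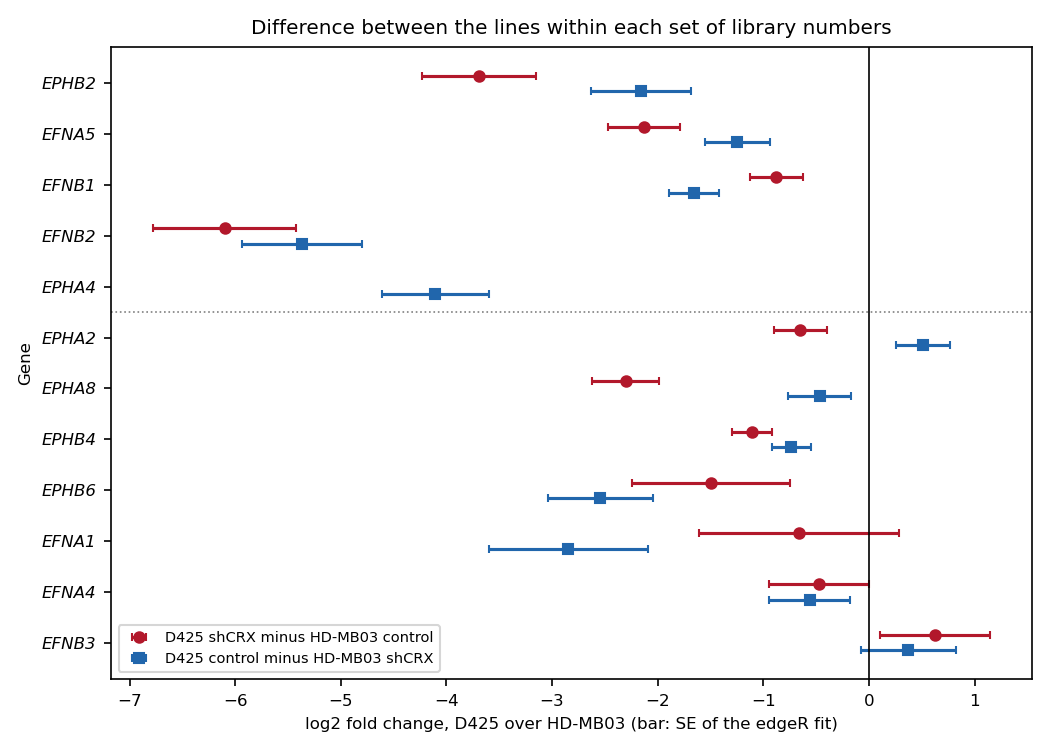
Log2 fold change of D425 over HD-MB03 within each set of library numbers, with the SE of the edgeR fit. Shown are EPHB2, EFNA5, EFNB1, EFNB2 and EPHA4 (above the dotted line) and 7 other family genes (below it). EPHA4 has 1 point because D425 shCRX held 2 counts. EPHA3 and EPHB1 are not drawn. EPHA3 was higher in D425 controls than in HD-MB03 libraries labelled shCRX, at 2.89 ± 1.04. EPHB1 had -2.20 ± 1.31 there and -1.30 ± 1.59 in the other set. EPHB2, EFNA5, EFNB1 and EFNB2 lie below 0 in both sets, while EPHA2 lies at -0.65 in one and 0.51 in the other.

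The other 12 family genes were tested, and 9 of them passed the filter. Whether the libraries within a group are separate cultures is not stated in the labels, so the p-values cover a spread between samples that may be purely technical. In D425, 0 of the 9 passed by edgeR, 0 had an unadjusted p under 0.05 and 0 passed by DESeq2, with a median log2 fold change of 0.20 against 0.02 over all genes. Over all 16006 genes, 2.97% passed by edgeR there, 2768 had an unadjusted p under 0.05 and 990 passed by DESeq2. In HD-MB03, 4 of the 9 had an unadjusted p under 0.05, 3 passed by DESeq2 and 1 fell by edgeR, EPHA2 (ENSG00000142627.9), an EphA receptor often found high in carcinomas, and the median was -0.18 against 0.10 over all genes. Over all 16006 genes, 2747 had an unadjusted p under 0.05, 793 passed by DESeq2 and 1.51% passed by edgeR. Of those 4 genes, EPHA2, EPHA8 and EPHB4 were lower in the libraries labelled shCRX and EPHB6 was higher (1.79 ± 0.67 in log2 units). EPHA2 had 52.5 and 54.1 CPM in the libraries labelled shCRX, against 177 CPM in parental and 146 CPM in vector cells, -1.60 ± 0.28 in log2 units (SE; edgeR, adjusted p = 0.0180). In D425 it had 129, 91.6 and 86.7 CPM in shCRX and 73.5, 57.1 and 97.2 CPM in controls, which overlapped (0.44 ± 0.22, edgeR adjusted p = 0.344). The difference between the lines in the EPHA2 fold change was 2.04 ± 0.36 (edgeR adjusted p = 0.00971). The HD-MB03 call was lost without the parental library (-1.44), shCRX replicate 1 (-1.57) or shCRX replicate 2 (-1.61), and the difference was lost without the parental library (1.86) or shCRX replicate 1 (2.00). EPHA2 has 60.3% GC, and with the GC trend removed the HD-MB03 value was -1.43 (edgeR adjusted p = 0.0428).

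Between the lines, 4 of the 9 other genes were lower in D425 and 0 were higher, with a median of -0.92 against 0.05 over all genes. Of all 16006 genes, 21.6% were lower and 24.4% were higher. EPHB4, a receptor of ephrin-B2 in veins, differed by -0.92 ± 0.13 in log2 units (adjusted p = 1.12e-04, edgeR), with 59.4 to 72.0 CPM in D425 shCRX, 52.7 to 62.5 in D425 controls, 90.3 and 101 in HD-MB03 libraries labelled shCRX and 154 and 131 in HD-MB03 controls. EPHA8, a receptor of ephrin-A ligands, differed by -1.39 ± 0.22 (adjusted p = 2.35e-04, edgeR) and EPHB6, which lacks kinase activity, -2.02 ± 0.46 (edgeR adjusted p = 0.00311). EFNA1, a ligand of EPHA2, had -1.75 ± 0.62 (edgeR adjusted p = 0.0335), and its call was lost without any of 6 libraries, at values of -2.09 to -1.10 over the 10 left-out fits. D425 shCRX against HD-MB03 controls gave -1.11 ± 0.19 for EPHB4 and -2.30 ± 0.32 for EPHA8. EPHB6 had -1.49 ± 0.74 and EFNA1 -0.66 ± 0.95 there. D425 controls against HD-MB03 libraries labelled shCRX gave -0.73 ± 0.18 for EPHB4 and -0.47 ± 0.30 for EPHA8. In that set EPHB6 had -2.54 ± 0.49 and EFNA1 -2.85 ± 0.75. EPHB6 and EFNA1 had 7 counts each in HD-MB03 controls, and both calls were lost with a replicate block on 8 libraries. EPHA6, EFNA3, EFNA4 and EFNB3 passed in no comparison, and EPHA1, EPHA10 and EPHB3 had at most 13 counts in any library. The HD-MB03 shCRX counts of EPHA10 and EPHB3, 12 and 13, all lay in replicate 2.

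Levels were compared between genes per kb of transcript. By the median annotated protein-coding transcript, EPHA2, outside the described set, was highest in D425 at 22.5 CPM per kb. In HD-MB03 the order of EPHA2 and EPHB4 differed by arm, with 13.4 CPM per kb of EPHA2 and 25.3 of EPHB4 in the libraries labelled shCRX, and 40.7 of EPHA2 and 37.6 of EPHB4 in the controls. Of the described genes, EFNB1 was highest in D425 at 3.47 CPM per kb, with EFNA5 next at 3.10, and their D425 levels do not differ beyond the SD of 1.43 and 1.26 over 6 libraries. By arm, EFNB1 was the highest ephrin in D425 shCRX, at 4.76 ± 0.363 CPM per kb, and EFNA5 in D425 controls, at 4.14 ± 0.360 (SD, n = 3 each). EFNA4, outside the described set, came near EFNA5 per kb in D425 controls. It had 4.04 ± 0.710 CPM there (SD, n = 3), with a median transcript of 1096 nucleotides. In HD-MB03, EPHA4 stood at 18.5 CPM per kb by this length and at 1.75 by the longest transcript, since the median of its annotated transcripts is 600.5 nucleotides and the longest is 6346. EFNA5 followed at 9.50 and EFNB1 at 7.83 CPM per kb, with SDs of 2.48 and 1.39 over 4 libraries. Summed over the ephrin-B class, levels were 6.73 to 8.05 CPM per kb in D425 shCRX, 2.86 to 4.34 in D425 controls, 9.24 to 12.03 in HD-MB03 libraries labelled shCRX and 12.9 to 14.0 in HD-MB03 controls. The ephrin-A class summed to 4.35 to 8.02 CPM per kb in D425 shCRX and 7.49 to 9.09 in D425 controls, which overlapped.

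**Figure D4:**
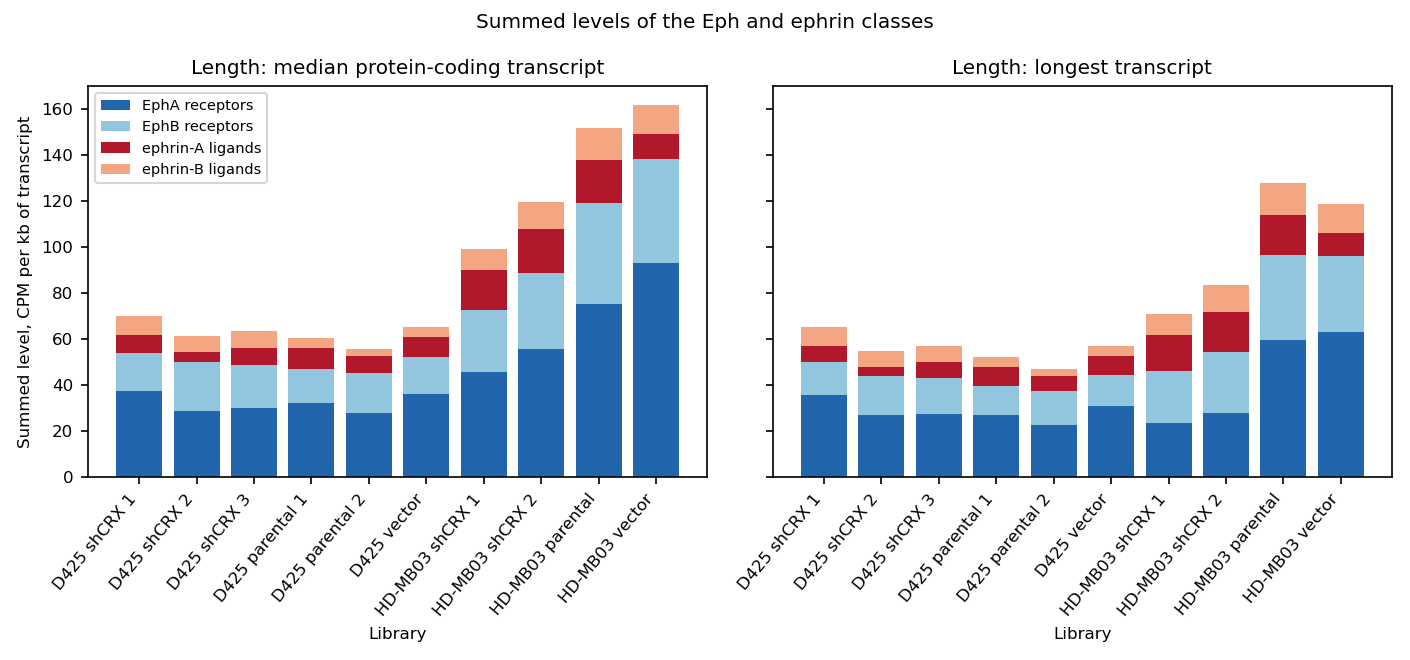
Summed level of the EphA receptors, EphB receptors, ephrin-A ligands and ephrin-B ligands in each library, in CPM per kb, with gene length taken as the median protein-coding transcript (left) or the longest transcript (right). EphA receptors make up the largest class in every library on both sides. On the right, EphB receptors come close in the HD-MB03 libraries labelled shCRX. Replicate 1 has 23.3 CPM per kb of EphA against 22.8 of EphB, and replicate 2 has 27.8 against 26.5. On both sides the stack of all 4 classes is tallest in the HD-MB03 controls. The ephrin-A class goes against this, with 10.8 CPM per kb in the HD-MB03 vector library by median length, below the HD-MB03 libraries labelled shCRX at 17.1 and 18.9.

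Genes that work with the Eph system were read from lists. Of 26 tested forward signalling partners, 2 fell and 0 rose in D425 shCRX, both chimaerins, GTPase-activating proteins for Rac, of which CHN1 acts downstream of EPHA4 in mouse motor circuits. Of all 16006 genes, 1.37% fell and 1.61% rose there by edgeR. CHN2 had 50.1, 15.3 and 38.4 CPM in shCRX and 125, 96.3 and 208 in controls (-2.03 ± 0.41 in log2 units, adjusted p = 0.0227 by edgeR), and was lost without the vector library or shCRX replicate 3 (-2.44 to -1.66 over the 10 left-out fits). CHN1 had 72.6, 58.3 and 90.8 CPM in shCRX and 201, 117.1 and 186 in controls (-1.19 ± 0.27, edgeR adjusted p = 0.0373), and was lost without any of 5 of the 6 D425 libraries (-1.43 to -1.04). The list's median was -0.24 against 0.02 over all genes, and 12 of the 26 had an unadjusted p under 0.05, against 2768 of all 16006 genes. Of the 10 reverse signalling partners 0 passed and 2 had an unadjusted p under 0.05. Of 8 genes of ectodomain and intramembrane cleavage, APH1B, a gamma-secretase subunit, fell (-2.40 ± 0.50, edgeR adjusted p = 0.0265), with 35.9, 13.9 and 19.7 CPM in shCRX and 98.0, 54.1 and 223 in controls, and was lost without any of 4 libraries (-2.91 to -1.69). In HD-MB03, 0 genes of these 3 lists passed by edgeR, against 1.51% of all genes. There 2 of 26 forward partners, 2 of 10 reverse partners and 1 of 8 cleavage genes had an unadjusted p under 0.05, against 2747 of all 16006 genes.

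Other guidance systems were read in the same way. Of 30 tested semaphorin, plexin and neuropilin genes, 3 rose and 0 fell in D425 shCRX, with a median of 0.34 against 0.02 over all genes. By edgeR, 1.61% of all genes rose and 1.37% fell there. PLXNA2, a receptor of class 6 semaphorins, had 24.2, 63.9 and 30.2 CPM in shCRX and 5.54, 2.42 and 2.09 in controls (3.498 ± 0.497 in log2 units, adjusted p = 0.00444 by edgeR). PLXND1 rose by 1.42 ± 0.27 (edgeR adjusted p = 0.0168, lost without any of 4 libraries, 1.16 to 1.67) and SEMA4C by 0.78 ± 0.18 (edgeR adjusted p = 0.0400, lost without any of 8 libraries, 0.74 to 0.80). Of 14 netrin, slit and repulsive guidance genes, UNC5B, a netrin receptor, rose, with 49.3, 82.9 and 39.1 CPM in shCRX and 6.38, 4.60 and 3.82 in controls (3.51 ± 0.42, edgeR adjusted p = 0.00172). With the vector libraries as the only controls, the D425 calls of CHN1, CHN2, APH1B, PLXNA2, PLXND1, SEMA4C and UNC5B were all lost. With parental controls alone, and on 8 libraries with no replicate block, those of CHN1, CHN2, APH1B, PLXND1 and SEMA4C were lost. The replicate block on those libraries ended the calls of CHN1, PLXNA2, PLXND1 and SEMA4C. CHN1 was also lost under library totals, and SEMA4C with no filter, the GC trend removed or libraries thinned to equal depth. In HD-MB03 the call in these lists was SEMA6B, a transmembrane semaphorin, with 29.02 and 36.7 CPM in the libraries labelled shCRX and 188 and 149 in controls (-2.36 ± 0.32, edgeR adjusted p = 0.00485), lost without the parental library (-2.16) or shCRX replicate 2 (-2.53).

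The protein-coding genes with the profile most like EPHA3, by the root mean square difference of centred log2(CPM + 0.5) over the 10 libraries, were PIEZO2 at 0.666, EYA1 at 0.821 and FSTL4 at 0.825, where the median of 12213 genes was 1.94. PIEZO2 had 0.554, 0 and 0.256 CPM in D425 shCRX, 6.61, 5.97 and 7.09 in D425 controls, 0 and 0.430 in HD-MB03 libraries labelled shCRX and 0 and 0 in HD-MB03 controls. For EPHA4 they were TAP2 at 0.319, AGPAT4 at 0.321 and SOCS2 at 0.362, and for EPHB1, whose profile rests on few reads, PET117 at 0.468, LMO7 at 0.479 and MCUB at 0.484. These are descriptions of likeness over shared libraries.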

How the data were processed

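The authors deposited unnormalised read counts for each gene in each of 10 libraries. The submitters' processing notes name GRCh37 (hg19), HTSeq, HISAT2, DESeq2 and bcl2fastq. Versions are not given in the sources used here. Files held 57820 identifiers, and the 5 summary entries of each file entered neither library sizes nor tests. The unaligned share was 30.9% in HD-MB03 parental, 26.4% in HD-MB03 vector and 4.54% to 7.99% elsewhere. The reference used here (GENCODE and RefSeq) is of GRCh38, so it served for symbols, gene types, transcript lengths, GC content and promoter sequences only.

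edgeR 4.0.16 (R 4.3.3) was run on the counts with TMM scaling, filterByExpr over the 4 groups, a robust quasi-likelihood fit of 4 group means over all 10 libraries with 6 residual degrees of freedom, and two-sided tests with Benjamini-Hochberg adjustment over 16006 genes at a threshold of 0.05. The biological coefficient of variation was 26.0%. Each SE is the absolute log2 fold change divided by the square root of the quasi-likelihood F statistic. Levels are CPM on effective library sizes. A group at 0 gives a fold bound, using a floor of 3 counts summed over that group, and a group with 1 to 3 counts gives a ratio with an exact 95% interval. DESeq2 1.42.0 and the other alternatives are in the closing section. Scripts were tested on simulated data. D425 parental and shCRX libraries share replicate numbers, but their replicate differences had a correlation of 0.0137 across genes (0.00897 between the shCRX libraries of the lines), so no block was used.

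Named were the 10 described and 12 other family genes, up to 4 called genes per list and comparison with a mean of at least 1 CPM, and the 3 nearest profiles of EPHA3, EPHA4 and EPHB1. The genes, lists and tests were chosen with earlier results of these data known.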

Additional observations from a re-analysis of the deposited data

Results flagged for a closer look

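Several genes responded to the shCRX label differently in the lines, by the edgeR test of the difference between the log2 fold changes (D425 minus HD-MB03). EPHA2 differed by 2.04 (adjusted p = 0.00971) and CRX itself by -2.14 (adjusted p = 0.0199). Among genes that cleave or act beside the Eph system, the differences were -3.92 for APH1B, -4.81 for PLXNA4, 4.21 for PLXNA2, 2.68 for SEMA6B, 2.21 for PLXND1 and 4.57 for UNC5B, with edgeR adjusted p-values between 0.00313 (UNC5B) and 0.0325 (APH1B). Leaving out 1 library ended the call of APH1B for D425 shCRX replicates 2 and 3 and each of the 4 HD-MB03 libraries (-4.62 to -3.20 over the 10 fits), of PLXNA4 for D425 shCRX replicates 1 and 3, HD-MB03 vector and both HD-MB03 libraries labelled shCRX (-6.29 to -3.99), of CRX for HD-MB03 parental, vector or shCRX replicate 1 (-2.39 to -1.84), and of EPHA2 (1.81 to 2.26), PLXNA2 (3.42 to 4.83) and PLXND1 (1.95 to 2.48) without HD-MB03 parental or HD-MB03 shCRX replicate 1. The SEMA6B and UNC5B calls were kept in all 10 such fits. With vector libraries as the only controls all 8 calls were lost. With parental controls alone, and on 8 libraries with no replicate block, the CRX, APH1B, PLXNA4 and PLXND1 calls were lost. With the replicate block on those libraries the CRX, PLXNA2 and PLXND1 calls were lost. The APH1B call was also lost with the GC trend removed or libraries thinned to equal depth, and the PLXNA4 call with no filter on low counts. The set of library numbers and the arm cannot be told apart in these differences.

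EFNB1 differed between arms in opposite directions in the lines, with no overlap of the arms in either line. In each line taken alone, 23.0% of tested genes in D425 and 52.3% in HD-MB03 did not overlap. The share of genes without overlap in both lines and in opposite directions is not given here, so how common the EFNB1 pattern is cannot be read. The EPHA7 arms did not overlap either, but their order in HD-MB03 rests on shCRX replicate 2. Replicate 1, at 0.643 CPM, lay under the control floors of 1.56 and 1.61 CPM, so its order against the controls cannot be read. The difference was not tested for EPHA7, which did not pass the filter on low counts, and is given for EFNB1 as a description with no p, since the gene was chosen on these values. EFNB1 was higher in D425 shCRX and lower in HD-MB03 libraries labelled shCRX, a difference of 1.47 on the log2 scale, which was 1.04 with the GC trend removed, when the HD-MB03 value was -0.11. EPHA7 was at 0 in D425 shCRX and present in D425 controls, and was at least 13.4-fold higher in HD-MB03 libraries labelled shCRX than in their controls, with 287 of 296 counts in 1 library. Without that library no bound above 1 was left.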

How the results depend on the processing

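Of 695 alternative values for the 7 fitted genes of the described set, 603 moved by less than the replicate SD, 92 moved by more and 0 reversed a called value. Of 885 for the other family genes, 859 kept their call, 8 gained and 18 lost one, and of 737 for the other named genes 609 kept it and 128 lost it. The counts of called genes depended on the settings. In D425 (476) they were 1211 without a filter, 990 with DESeq2, 8 with vector controls alone, 104 with parental controls alone, 316 with libraries thinned to equal depth and 185 to 430 without 1 library (217 without parental replicate 1). In HD-MB03 (241) they were 790, 793, 1 and 62 in the first 4 of these settings and 15 to 329 without 1 library (31 without the parental library). In the mean of the lines (36) they were 405, 369, 0 and 2, with 18 under library totals, 55 with the GC trend removed and 3 to 71 without 1 library (14 without the D425 vector and 16 without the HD-MB03 vector). For the difference between the lines (666) they were 1579, 1358, 3 and 227, with 350 with the GC trend removed and 177 to 841 without 1 library (177 without HD-MB03 parental, 186 without HD-MB03 shCRX replicate 1). Between the lines (7365) vector controls alone gave 4613, and leaving out 1 library 5942 to 7883. The lowest HD-MB03 count, 15, was without shCRX replicate 2, and the lowest D425 count, 185, without the vector library. Under library totals the D425 calls split into 367 higher and 151 lower, against 257 and 219 with TMM. In HD-MB03, 42 genes were higher and 199 lower, which became 404 and 386 without a filter and 55 and 27 without shCRX replicate 1. In the mean of the lines 3 were higher and 33 lower, which became 55 and 16 without that library. Among the other family genes, HD-MB03 calls (1) were 2 without a filter, 3 with DESeq2, 0 with vector or parental controls alone and 0 to 1 without 1 library. Calls in the mean of the lines (0) were 1 without a filter and 1 with DESeq2. Calls of the difference (1) were 2 with DESeq2, 0 with vector controls alone and 0 to 1 without 1 library, and those between the lines (4) were 3 to 4 without 1 library. An arm left with 1 library is assumed to vary like the other groups. Depth limits the HD-MB03 controls most, with 1956353 and 2083297 counted reads.

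D425 parental and shCRX libraries share only replicate numbers 1 and 2. With the replicate block, on 8 libraries, 1.2e+02 genes passed in D425 (51 higher and 66 lower), 127 in HD-MB03, 18 in the mean of the lines and 287 for the difference, against 81, 96, 5 and 173 on the same 8 libraries with no block, and 2 other family genes passed between the lines.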

Other observations

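Between the lines, guidance and partner genes also differed by edgeR with adjusted p over all genes. NTN1, the secreted guidance cue netrin-1, had 0.0923, 0 and 0 CPM in D425 shCRX, 0.224, 0.0807 and 0.182 in D425 controls, 35.1 and 42.4 in HD-MB03 libraries labelled shCRX and 36.4 and 34.3 in HD-MB03 controls (adjusted p = 2.24e-09). NGEF, which encodes ephexin-1, an exchange factor that binds EphA receptors, had 1 count over the 6 D425 libraries and 24.9, 22.8, 13.0 and 2.14 CPM in HD-MB03 shCRX replicates 1 and 2, parental and vector. SEMA3A, a secreted repulsive semaphorin, was higher in D425 by 3.59 ± 0.32 on the log2 scale (adjusted p = 2.66e-06). Of 30 tested semaphorin system genes, 5 were higher and 16 lower in D425, and of 14 netrin and slit genes 1 was higher and 7 lower. Of 26 forward partners 5 were higher and 6 lower, and of 10 reverse partners 4 were higher and 1 lower. Among 8 cleavage genes 3 were higher and 2 lower. Of all genes, 24.4% were higher and 21.6% lower in D425.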
